A study of Homo sapiens with 24 samples.

Results

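The genes described here encode the Sm proteins and the proteins particular to the U1 small nuclear ribonucleoprotein (snRNP). Their mRNAs were 10 of the 61853 gene rows of the count table, picked as the rows whose Ensembl gene ID carries the symbol SNRPB, SNRPD1, SNRPD2, SNRPD3, SNRPE, SNRPF, SNRPG, SNRPA, SNRPC or SNRNP70. All 10 passed the filter on low counts, with 77 to 10156 counts in a library. RNA sequencing after ribosomal RNA depletion was carried out on cytoplasmic RNA of 293T, a human embryonic kidney line, taken after a sucrose gradient, which parts particles by size and density, from its fractions 3, 4, 7 and 8. The cells of all groups carried the hairpin DIS3-sh2 against DIS3, the catalytic subunit of the RNA exosome, and were rescued with DIS3 D146N or with DIS3 WT. D146N replaces an aspartate of the endonuclease centre. The 8 groups, namely D146N fractions 3, 4, 7 and 8 and WT fractions 3, 4, 7 and 8, held 3 libraries each. A single hairpin was used, libraries without knockdown are not analysed here, and the labels do not say whether replicates came from separate cultures, so p-values measure the spread between these libraries only.

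The Sm proteins B, D1, D2, D3, E, F and G form a ring around a uridine-rich site of the U1, U2, U4 and U5 snRNAs. The ring is put on in the cytoplasm with the help of the SMN complex, before the particle returns to the nucleus and takes part in pre-mRNA splicing. The U1 particle recognises the 5′ splice site and adds the A protein (SNRPA), which binds a stem-loop of U1 snRNA, the C protein (SNRPC), a small zinc-finger protein that steadies pairing with the splice site, and the 70K protein (SNRNP70), a larger protein with an arginine-rich tail. All of these mRNAs are translated in the cytoplasm, where the gradients were sampled.

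The genes lie on separate chromosomes for the most part. In GRCh38.p14, SNRPD2 spans chr19:45687454-45692316, SNRPA chr19:40751203-40765389 and SNRNP70 chr19:49085451-49108604, and SNRPC spans chr6:34757505-34773857. Sequences before the start site were matched by symbol in RefSeq (GRCh38.p14) for 9 of the 10 genes, SNRPD1 being unmatched, and 7 of these had a start site at the edge of the gene. The 250 bases before that site are shown for SNRPD2 and SNRNP70, the mRNAs that lay farthest apart below, and for SNRPC, the U1 mRNA that sided with the Sm mRNAs. Capitals mark CCGGAA, the core bound by ETS-family factors, or its reverse complement TTCCGG, so a TTCCGGAA holds an overlapping pair. The windows are chr19:45692317-45692566 (minus strand) for SNRPD2, chr6:34757255-34757504 (plus strand) for SNRPC and chr19:49085201-49085450 (plus strand) for SNRNP70, each written 5′ to 3′ on the gene's strand.
SNRPD2: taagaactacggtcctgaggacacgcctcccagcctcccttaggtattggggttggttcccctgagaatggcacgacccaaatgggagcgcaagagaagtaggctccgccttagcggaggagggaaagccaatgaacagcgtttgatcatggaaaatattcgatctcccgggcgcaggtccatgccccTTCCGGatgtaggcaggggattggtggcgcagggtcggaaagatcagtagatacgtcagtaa
SNRPC: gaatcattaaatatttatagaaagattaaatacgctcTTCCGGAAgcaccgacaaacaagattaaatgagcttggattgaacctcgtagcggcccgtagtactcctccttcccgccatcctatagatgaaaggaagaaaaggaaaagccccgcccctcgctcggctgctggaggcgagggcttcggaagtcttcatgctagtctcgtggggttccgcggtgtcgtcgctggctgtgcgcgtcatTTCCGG
SNRNP70: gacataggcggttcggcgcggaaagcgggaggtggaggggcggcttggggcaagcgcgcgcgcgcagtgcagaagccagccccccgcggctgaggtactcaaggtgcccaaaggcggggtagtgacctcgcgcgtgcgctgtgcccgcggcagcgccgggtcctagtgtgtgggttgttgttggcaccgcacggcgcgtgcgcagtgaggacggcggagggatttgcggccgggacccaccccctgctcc
There was 1 match in the SNRPD2 window, 3 in the SNRPC window and 0 in the SNRNP70 window. Matches stood in the windows of 3 of these 7 genes (SNRPB, SNRPD2 and SNRPC). Of all 35116 windows of that length, which include start sites away from gene edges, 14.5% held at least 1. The sets are unlike, so the values do not measure enrichment. Away from the gene edge, matches also stood in windows of SNRPD3, SNRPE and SNRPG, but not in the other SNRPD2 windows. A match is a run of letters, and the data do not bear on binding.

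Libraries held 21150619 to 32989418 counts. Protein-coding rows took 16.1% and 15.7% of the counts in D146N fractions 3 and 4 and 40.1% and 39.2% in D146N fractions 7 and 8, against 36.8% and 36.9% in WT fractions 3 and 4 and 19.8% and 21.7% in WT fractions 7 and 8. The row of DIS3, which pools endogenous and any rescue mRNA and so does not check the knockdown, was likewise highest in D146N fractions 7 and 8 and WT fractions 3 and 4. It averaged 101 ± 13.9 and 97.6 ± 4.99 CPM (counts scaled to the library total; SD, n = 3) in D146N fractions 7 and 8, and 4.93 ± 0.359 and 5.88 ± 0.403 CPM in WT fractions 7 and 8. In fractions 3 and 4 it averaged 8.59 ± 0.944 and 9.13 ± 0.567 CPM in D146N cells and 98.4 ± 12.0 and 95.1 ± 0.764 CPM in WT cells. The fractions thus ran in opposite orders in the genotypes. A genotype difference and a reversed order of fraction numbers in 1 genotype cannot be told apart here, nor can fewer cells and less RNA per cell. Of 8 marker genes for 293T, 5 had a median of at least 1 CPM (VIM, KRT8, LIN28B, KRT18 and CDH2), while PAX2, NEFM and NEFL did not. Of 7 hepatocyte markers 5 did, led by APOB, ALB and AFP, and their summed level ranged from 515 to 566 CPM in D146N fractions 7 and 8, 26.8 to 32.4 CPM in D146N fractions 3 and 4, 30.6 to 123 CPM in WT fractions 7 and 8 and 613 to 662 CPM in WT fractions 3 and 4. The 8 markers for 293T summed to 306 to 336 CPM in D146N fractions 7 and 8. In WT fractions 3 and 4 they summed to 313 to 337 CPM. The sums were 28.8 to 34.2 CPM in D146N fractions 3 and 4 and 24.4 to 34.0 CPM in WT fractions 7 and 8. The hepatocyte sums thus lay above the 293T sums in D146N fractions 7 and 8 and WT fractions 3 and 4. The name 293T is that of the sample titles. The part of the hepatocyte markers in the results was not tested. No leukocyte, erythroid or epithelial marker had a median over 1 CPM, CD3E was at 0 in every library, and 2 of 4 fibroblast markers (COL1A1 and COL3A1) had a median over 1 CPM.

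One library stood apart from its group: replicate 3 of WT fraction 8. It held 61.3 CPM of SNRPB and 27.9 CPM of SNRPA, against 20.3 and 20.6 CPM of SNRPB and 4.54 and 5.30 CPM of SNRPA in the other WT fraction 8 libraries. Its protein-coding share was 24.4%, against 20.4% and 20.2%. It also held less SNRPD2, SNRPE, SNRPF and SNRPG than the other WT fraction 8 libraries. Results that rest on it are given with and without it. It was singled out after its SNRPA and SNRPB levels were seen, so p-values without it are not independent of that choice.

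A pair of scales is used below. CPM sets a gene against the whole library, which is filled unequally by mRNA, whereas fold changes from edgeR after TMM scaling set it against the typical tested gene. They can differ in sign. For fractions 7 and 8 over 3 and 4, the median log2 fold change of all genes was 3.00 in D146N cells and -2.83 in WT cells with library totals, 1.67 and -1.96 with protein-coding totals and 0.10 and -0.18 with TMM. Ratios between 2 genes within a library are free of either scale. Levels are compared between samples for 1 gene at a time, because transcript lengths were not used here.

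**Figure D1:**
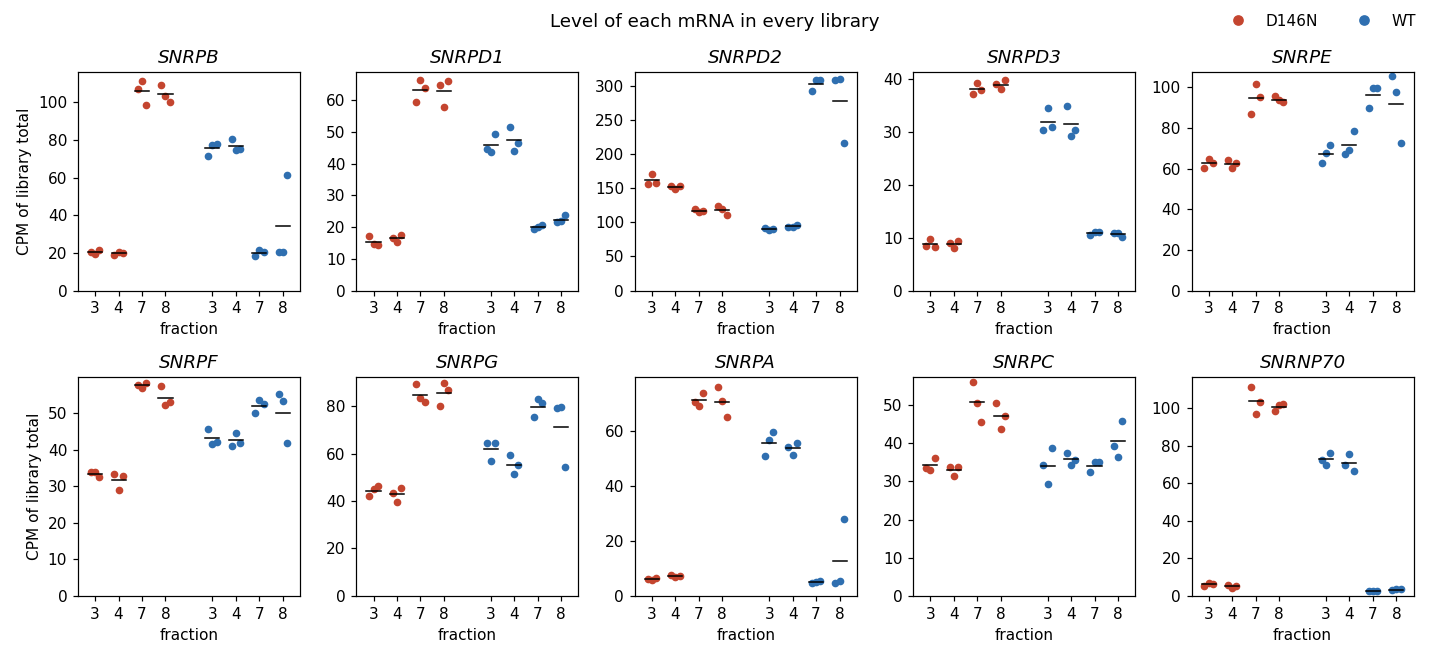
CPM of the library total (vertical axes, each from 0) of each mRNA in all 24 libraries by gradient fraction, D146N in red and WT in blue, with a line at the mean of 3. SNRNP70 and SNRPA reach 65.3 CPM or more in D146N fractions 7 and 8 and 51.0 CPM or more in WT fractions 3 and 4, and stay at or under 7.79 CPM elsewhere except for SNRPA in WT fraction 8 replicate 3, whereas SNRPD2 is highest in WT fractions 7 and 8.

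SNRPD2 spanned the widest absolute range of the 10 mRNAs, by CPM and on the TMM scale. As a ratio of highest to lowest CPM, other members such as SNRNP70 and SNRPA ranged farther. SNRPD2 encodes SmD2, which pairs with SmD1 before the ring closes. In D146N cells it stood at 156, 169.9 and 158 CPM in fraction 3, at 153, 149 and 154 CPM in fraction 4, at 119.8, 115 and 117 CPM in fraction 7 and at 123, 120.1 and 111 CPM in fraction 8. In WT cells it stood at 91.8, 88.3 and 89.4 CPM in fraction 3, at 93.1, 92.8 and 96.3 CPM in fraction 4, at 292, 309 and 308 CPM in fraction 7 and at 308, 309 and 216 CPM in fraction 8. Fractions 7 and 8 lay below fractions 3 and 4 in D146N cells and above them in WT cells, with no overlap in either genotype. On the TMM scale the spans were wider, with 40.4 to 44.3 CPM in D146N fractions 7 and 8, 412 to 470.5 CPM in D146N fractions 3 and 4, 408 to 836 CPM in WT fractions 7 and 8 and 35.1 to 38.5 CPM in WT fractions 3 and 4.

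SNRPE, SNRPF and SNRPG encode the Sm proteins that join as a trio during assembly. SNRPE stood at 60.5, 64.8 and 62.9 CPM in fraction 3, 64.0, 60.2 and 62.6 CPM in fraction 4, 87.0, 102 and 95.1 CPM in fraction 7 and 95.5, 93.5 and 92.6 CPM in fraction 8 of D146N cells. In WT cells SNRPE stood at 62.8, 67.7 and 71.6 CPM in fraction 3, 67.2, 69.1 and 78.3 CPM in fraction 4, 90.0, 99.4 and 99.5 CPM in fraction 7 and 105, 97.6 and 72.6 CPM in fraction 8. By CPM SNRPE was thus higher in fractions 7 and 8 in D146N cells without overlap, and in WT cells the sides overlapped only through fraction 8 replicate 3. SNRPF had a lowest, median and highest level of 52.2, 57.1 and 58.4 CPM in D146N fractions 7 and 8 and of 28.9, 33.2 and 34.0 CPM in D146N fractions 3 and 4. In WT cells SNRPF had 41.8, 52.9 and 55.4 CPM in fractions 7 and 8 and 41.0, 42.1 and 45.7 CPM in fractions 3 and 4. SNRPG followed with 80.1, 85.0 and 89.7 CPM in D146N fractions 7 and 8, 39.7, 44.2 and 46.2 CPM in D146N fractions 3 and 4, 54.4, 79.3 and 82.9 CPM in WT fractions 7 and 8 and 51.2, 58.1 and 64.4 CPM in WT fractions 3 and 4. For SNRPF and SNRPG too, the lowest WT value of fractions 7 and 8 was that of fraction 8 replicate 3, and without it the lowest were 49.9 and 75.3 CPM. Rows of processed pseudogenes held 3.63% to 7.38% as many counts as SNRPE itself, and 0.785% to 2.91% for SNRPG, so reads of these mRNAs may be split with their copies. Adding those rows changed no call.

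SNRPB, SNRPD1 and SNRPD3 followed another order by CPM. SNRPB, which encodes the alternatively spliced SmB and SmB′, stood at 20.5, 19.3 and 21.7 CPM in fraction 3, 18.9, 20.7 and 20.1 CPM in fraction 4, 107, 111 and 98.6 CPM in fraction 7 and 109, 103 and 100.3 CPM in fraction 8 of D146N cells. In WT cells SNRPB stood at 71.6, 77.5 and 77.7 CPM in fraction 3, 80.3, 74.6 and 75.4 CPM in fraction 4, 18.2, 21.5 and 20.6 CPM in fraction 7 and 20.3, 20.6 and 61.3 CPM in fraction 8. D146N fractions 7 and 8 lay above all other groups and WT fractions 3 and 4 came next, with no overlap between these. SNRPD1, the partner of SmD2, had a lowest, median and highest level of 57.9, 64.4 and 66.3 CPM in D146N fractions 7 and 8 and 14.3, 15.9 and 17.6 CPM in D146N fractions 3 and 4. In WT cells SNRPD1 had 19.5, 21.1 and 23.7 CPM in fractions 7 and 8 and 43.8, 45.6 and 51.5 CPM in fractions 3 and 4. SNRPD3, the partner of SmB, had 37.2, 38.6 and 39.8 CPM in D146N fractions 7 and 8, 8.12, 8.77 and 9.72 CPM in D146N fractions 3 and 4, 10.2, 10.9 and 11.1 CPM in WT fractions 7 and 8 and 29.2, 30.6 and 34.9 CPM in WT fractions 3 and 4. For both genes D146N fractions 7 and 8 were highest, then WT fractions 3 and 4, WT fractions 7 and 8 and D146N fractions 3 and 4, and the ranges of these 4 sides did not overlap.

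Of the 10 mRNAs, SNRNP70 had the highest ratio of highest to lowest CPM. In D146N cells it stood at 5.06, 6.80 and 6.59 CPM in fraction 3, 5.69, 4.43 and 5.06 CPM in fraction 4, 111, 97.3 and 104 CPM in fraction 7 and 98.5, 102 and 103 CPM in fraction 8. In WT cells it stood at 72.5, 69.9 and 76.3 CPM in fraction 3, 70.0, 75.6 and 66.5 CPM in fraction 4, 2.48, 2.67 and 2.81 CPM in fraction 7 and 2.95, 3.52 and 3.75 CPM in fraction 8. The groups fell in the order D146N fractions 7 and 8, WT fractions 3 and 4, D146N fractions 3 and 4, WT fraction 8 and WT fraction 7. Ranges overlapped between D146N fractions 7 and 8, between WT fractions 3 and 4 and between D146N fractions 3 and 4, and not otherwise. SNRPA stood at 6.04, 5.93 and 6.49 CPM in fraction 3, 7.79, 6.96 and 7.11 CPM in fraction 4, 70.7, 69.2 and 74.0 CPM in fraction 7 and 76.2, 71.0 and 65.3 CPM in fraction 8 of D146N cells. In WT cells SNRPA stood at 51.0, 56.9 and 59.9 CPM in fraction 3, 54.3, 51.4 and 55.6 CPM in fraction 4, 4.70, 5.15 and 5.34 CPM in fraction 7 and 4.54, 5.30 and 27.9 CPM in fraction 8. D146N fractions 7 and 8 were highest and WT fractions 3 and 4 next, as for SNRNP70. With all libraries the mean of WT fraction 8 came next, above D146N fractions 4 and 3 and WT fraction 7, and without its replicate 3 both WT fractions 7 and 8 lay below D146N fractions 3 and 4. SNRPC stood at 33.6, 33.1 and 36.3 CPM in fraction 3, 33.8, 31.3 and 33.8 CPM in fraction 4, 56.0, 50.5 and 45.6 CPM in fraction 7 and 50.6, 43.6 and 47.3 CPM in fraction 8 of D146N cells. In WT cells SNRPC stood at 34.3, 29.4 and 38.8 CPM in fraction 3, 37.6, 34.4 and 35.6 CPM in fraction 4, 32.4, 35.0 and 35.0 CPM in fraction 7 and 39.4, 36.4 and 45.8 CPM in fraction 8. D146N fractions 7 and 8 were highest, overlapped by WT fraction 8 replicate 3 alone, and the WT sides overlapped.

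Within D146N cells, fractions 7 and 8 were compared with fractions 3 and 4 to ask how the mRNAs were distributed along the gradient. Against the typical gene, 8 of the 10 mRNAs fell in fractions 7 and 8 and SNRNP70 rose; across all 18907 genes tested 30.3% fell, 29.9% rose and 60.2% changed in all (adjusted p under 0.05, edgeR's quasi-likelihood test with Benjamini-Hochberg adjustment). SNRPD2 fell by 3.34 on the log2 scale (SE 0.112, adjusted p = 3.72e-21), which placed 4.83% of tested genes below it. SNRPC fell by 2.39, SNRPE by 2.33, SNRPF by 2.15 and SNRPG by 1.96, while SNRPD1 fell by 0.94, SNRPD3 by 0.81 and SNRPB by 0.55 (SE 0.131, adjusted p = 0.00131). The SNRPB call was lost without replicate 3 of D146N fraction 7 (-0.37) or of D146N fraction 8 (-0.38). SNRNP70 rose by 1.27 (SE 0.0744, adjusted p = 4.79e-17), above 95.1% of tested genes. SNRPA stood at 0.48 on that scale (SE 0.249, adjusted p = 0.108) and was not called, although its D146N values did not overlap. The spread of a gene is shared over all groups, so this SE also holds that of WT fraction 8 replicate 3. This contrast was not refitted without that library, so the missing call does not show that SNRPA was unchanged. The median over the 10 mRNAs was -1.45, against 0.10 over all genes. All 8 that fell had sides that did not overlap on the TMM scale, as did 24.1% of tested genes in that direction, and so did the 2 higher members, SNRNP70 and SNRPA, where 19.1% did. Scaled to protein-coding totals, 5 fell and 5 rose, where 2402 of 18729 genes tested fell and 14011 rose. Scaled to library totals, 1 (SNRPD2) fell and 9 rose, where 772 of 18907 genes fell and 16800 rose. The lower calls therefore hold against the typical gene, and SNRPD2 and SNRNP70 are the only members called in 1 direction under all 3 scales.

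Within WT cells the same comparison gave the opposite directions. Against the typical gene, 8 of the 10 mRNAs rose in fractions 7 and 8 and SNRNP70 fell, where 34.6% of all tested genes rose, 39.3% fell and 73.9% changed in all. SNRPD2 rose by 4.37 on the log2 scale (SE 0.117, adjusted p = 7.87e-24, edgeR), above 97.5% of tested genes. SNRPE rose by 3.15, SNRPG by 3.07, SNRPF by 2.96 and SNRPC by 2.77, while SNRPD1 rose by 1.55, SNRPD3 by 1.14 and SNRPB by 1.09 (SE 0.131, adjusted p = 3.33e-07). SNRNP70 fell by 1.90 (SE 0.0787, adjusted p = 8.45e-22), with 5.94% of tested genes below it. SNRPA stood at -0.17 (SE 0.244, adjusted p = 0.533) and was not called. The median over the 10 mRNAs was 2.16, against -0.18 over all genes. Sides did not overlap on the TMM scale for 8 higher and 1 lower member, as for 27.6% of tested genes in each direction. Without WT fraction 8 replicate 3, SNRPA fell by 0.71 (SE 0.0647, adjusted p = 2.23e-14, edgeR) and SNRPD2 rose by 4.48. SNRPB then rose by 0.84 (SE 0.0453), less than with that library. The SNRPA call made 8 higher and 2 lower, where 6466 of 19605 genes tested were higher and 7546 lower. Scaled to protein-coding totals, 5 rose (SNRPD2, SNRPE, SNRPF, SNRPG and SNRPC) and 5 fell, where 2816 of 18729 genes tested rose and 14002 fell. Scaled to library totals, 4 rose and 5 fell, SNRPC not being called, where 1448 of 18907 genes rose and 15808 fell.

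**Figure D2:**
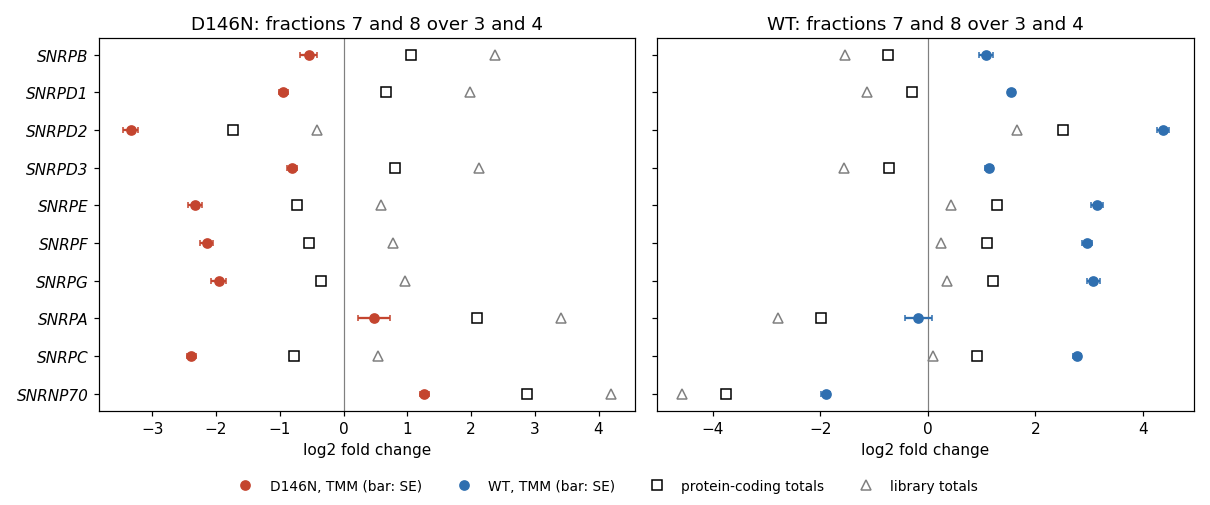
Log2 fold change of fractions 7 and 8 over fractions 3 and 4 (horizontal axes, which differ between panels) for each mRNA in D146N and WT cells, with TMM scaling (filled, bar: SE), protein-coding totals (squares) and library totals (triangles). SNRPD2 and SNRNP70 keep their sides of 0 under all 3 scales in both genotypes, at -3.34 and 1.27 in D146N and 4.37 and -1.90 in WT cells with TMM.

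**Figure D3:**
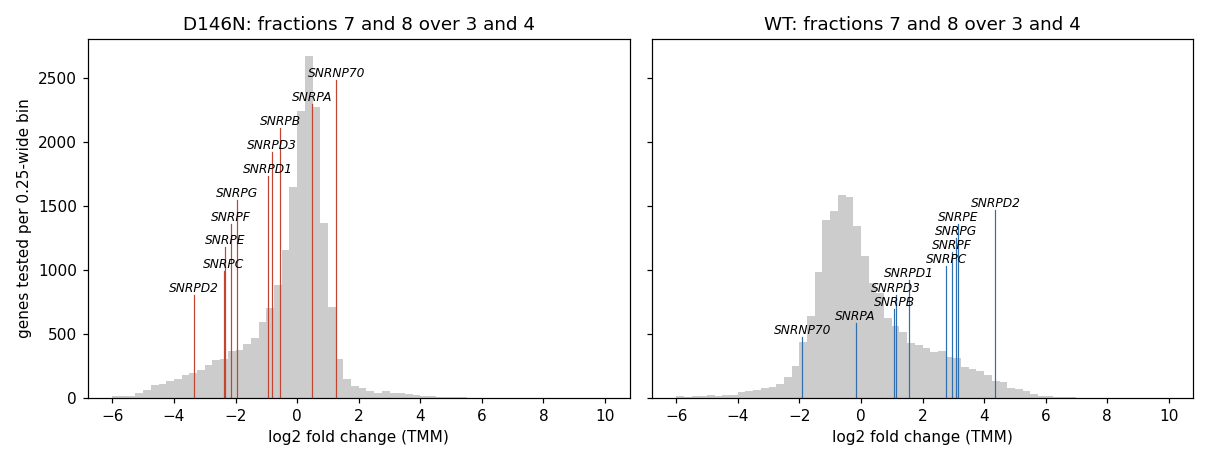
Number of tested genes per bin of log2 fold change of fractions 7 and 8 over fractions 3 and 4 (TMM), with the 10 mRNAs marked by lines whose heights only separate the names. SNRNP70 lies in 1 tail of the genes and SNRPD2 in the opposite tail in both genotypes, above 95.1% and 4.83% of genes in D146N and 5.94% and 97.5% in WT cells.

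The difference between the fraction contrasts (D146N minus WT) was tested directly. It was negative for 8 mRNAs and positive for SNRNP70, against 35.4% and 41.7% of all genes and 77.1% in all. SNRPD2 differed by -7.71 on the log2 scale (SE 0.162, adjusted p = 9.66e-27, edgeR) and SNRNP70 by 3.17 (SE 0.108, adjusted p = 1.68e-24). SNRPE, SNRPC, SNRPF and SNRPG differed by -5.48, -5.15, -5.11 and -5.03, and SNRPD1, SNRPD3 and SNRPB by -2.49, -1.94 and -1.64. Without WT fraction 8 replicate 3 SNRPB differed by -1.37. SNRPA differed by 0.65 (SE 0.349, adjusted p = 0.0974), and by 1.21 (SE 0.0873, adjusted p = 3.04e-18) without WT fraction 8 replicate 3. It was also called, at 0.89 to 0.94, when any library of D146N fractions 7 and 8 or WT fraction 4, or replicate 1 or 2 of WT fraction 3, was left out. With library totals the difference was negative for SNRPD2 alone among the called members, at -2.07, while the median of all genes moved to 5.88.

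Fraction by fraction, D146N was set against WT. In fraction 3, 8 mRNAs were higher in D146N cells and SNRNP70 was lower, where 25.8% of all genes were higher, 23.9% lower and 49.7% changed. In fraction 4 the count was again 8 higher and 1 lower, where 25.7% were higher, 22.8% lower and 48.5% changed. SNRPD2 was higher by 3.62 (SE 0.160, adjusted p = 7.21e-18, edgeR) and 3.47 (SE 0.160, adjusted p = 1.82e-17) in fractions 3 and 4, and SNRNP70 was lower, at -0.79 (SE 0.104, adjusted p = 6.72e-08) and -1.02 (SE 0.107, adjusted p = 4.04e-10). In fraction 7, 8 mRNAs were lower and 2 higher (SNRNP70 and SNRPA), where 31.1% were lower, 32.4% higher and 63.5% changed. In fraction 8, 8 were lower and SNRNP70 was higher, where 32.6% were lower, 32.5% higher and 65.1% changed. SNRPD2 had log2 fold changes of -4.32 (SE 0.165, adjusted p = 1.40e-19) in fraction 7 and -4.00 (SE 0.163, adjusted p = 6.36e-19) in fraction 8, and SNRNP70 of 2.35 (SE 0.113, adjusted p = 1.77e-19) and 2.18 (SE 0.109, adjusted p = 6.10e-19). SNRPA had 0.87 in fraction 7 (SE 0.356, adjusted p = 0.0424), and its call was lost when any WT fraction 7 library was left out (0.87 to 0.91) or median-of-ratios size factors were used (0.79). SNRPB had -0.55 in fraction 7, a call lost without any of the D146N fraction 7 libraries or replicate 2 of WT fraction 7 (-0.50 to -0.34), and with no filter (-0.38). In fraction 8 SNRPA had -0.07 (adjusted p = 0.868), but 0.98 (adjusted p = 5.79e-13) without WT fraction 8 replicate 3. SNRPB had -0.99 in fraction 8 with that library and -0.51 without it. On the TMM scale the libraries of the genotypes did not overlap for 8 higher and 2 lower members in fraction 3 (29.0% and 30.5% of tested genes) and for 8 higher and 1 lower in fraction 4 (28.7% and 29.1%). They did not overlap for 2 higher and 8 lower members in fraction 7 (37.3% and 33.6%) and for 1 higher and 8 lower in fraction 8 (35.5% and 32.6%). With protein-coding totals each of the 4 fractions gave 5 higher and 5 lower members. The share of all genes called on that scale is not given here, and the typical gene was itself shifted. The median of all genes was then -1.64, -1.61, 2.04 and 1.90 in fractions 3, 4, 7 and 8. That of the 10 members was 0.17, 0.26, 0.09 and 0.008.

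The relation between SNRNP70 and the Sm mRNAs does not depend on library scaling. For each library, the log2 ratio of SNRNP70 counts to the geometric mean of the 7 Sm mRNA counts was taken; it is a ratio of counts, not of molecules. In D146N cells it was -2.69, -2.30 and -2.30 in fraction 3, -2.52, -2.80 and -2.73 in fraction 4, 0.58, 0.34 and 0.48 in fraction 7 and 0.37, 0.46 and 0.47 in fraction 8. In WT cells it was 0.38, 0.33 and 0.41 in fraction 3, 0.27, 0.48 and 0.23 in fraction 4, -4.18, -4.19 and -4.11 in fraction 7 and -4.06, -3.78 and -3.66 in fraction 8. The ranges of D146N fractions 7 and 8 and WT fractions 3 and 4 overlapped, and each of the other sides lay apart. By side the ratio averaged 0.45 ± 0.086 in D146N fractions 7 and 8, -2.56 ± 0.219 in D146N fractions 3 and 4, -3.99 ± 0.223 in WT fractions 7 and 8 (SD, n = 6), whereas WT fractions 3 and 4 averaged 0.35 ± 0.091 (SD, n = 6). Without WT fraction 8 replicate 3 the WT fractions 7 and 8 averaged -4.06 ± 0.167 (SD, n = 5). A side pools libraries of neighbouring fractions, so these SDs, and those of the shares below, also hold differences between fractions. In counts, there were 1.37 SNRNP70 counts per Sm count of the geometric mean in D146N fractions 7 and 8 and 0.170 in D146N fractions 3 and 4, against 0.0627 in WT fractions 7 and 8. WT fractions 3 and 4 had 1.27. No test was run on this ratio, which is a score over the members.

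**Figure D4:**
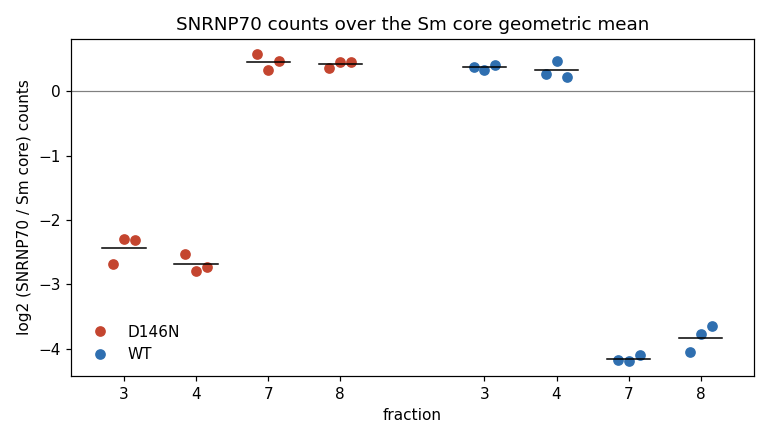
Log2 ratio of SNRNP70 counts to the geometric mean of the 7 Sm mRNA counts (vertical axis) in each library by fraction, D146N in red and WT in blue, with lines at the means of 3. D146N fractions 7 and 8 and WT fractions 3 and 4 lie between 0.23 and 0.58, D146N fractions 3 and 4 between -2.80 and -2.30, and WT fractions 7 and 8 between -4.19 and -3.66.

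The makeup of the summed counts of the 10 mRNAs shifted with this ratio. SNRPD2 made up 15.04% ± 0.464 in D146N fractions 7 and 8 and 40.5% ± 0.933 in D146N fractions 3 and 4, against 46.7% ± 3.93 in WT fractions 7 and 8 (48.3% ± 0.524 without replicate 3 of fraction 8, n = 5) and 15.9% ± 0.602 in WT fractions 3 and 4 (SD, n = 6). SNRNP70 made up 13.1% ± 0.648 in D146N fractions 7 and 8 and 1.45% ± 0.200 in D146N fractions 3 and 4, against 0.493% ± 0.102 in WT fractions 7 and 8, whereas WT fractions 3 and 4 had 12.4% ± 0.680. SNRPA made up 9.08% ± 0.426 in D146N fractions 7 and 8 and 1.74% ± 0.212 in D146N fractions 3 and 4, against 1.49% ± 1.72 in WT fractions 7 and 8 (0.793% ± 0.055 without replicate 3 of fraction 8, n = 5), whereas WT fractions 3 and 4 had 9.47% ± 0.468. SNRPG stayed between 9.03% and 12.95% in every library, and SNRPF between 6.76% and 8.83%. SNRPD2 thus held its larger shares in the groups where SNRNP70 and SNRPA held their smaller ones. The shares are parts of 1 sum, so a larger SNRPD2 share leaves less for the other members. The ratio above is made of the same counts.

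Across the 8 group means on the log2 TMM scale, the 7 Sm mRNAs followed one another with Pearson's r between 0.931 and 0.999. SNRPC followed them with r between 0.95 and 0.99. SNRNP70 ran against them with r between -0.94 and -0.85, and SNRPA with r between -0.78 and -0.54. Without WT fraction 8 replicate 3, r with the Sm mRNAs was between -0.90 and -0.74 for SNRPA and between -0.95 and -0.82 for SNRNP70, and r between SNRPA and SNRNP70 was 0.952, against 0.778 with it. These describe 8 points, which share their libraries and their TMM scaling. By the same measure over 5163 candidate genes with at least 10 CPM, the genes most like the mean Sm profile were SF3B6, SERF2, MRPS21, RPA3 and COX6A1, all with r over 0.999. SF3B6 encodes a subunit of the U2 snRNP, MRPS21 a protein of the mitochondrial ribosome, RPA3 a subunit of replication protein A and COX6A1 a subunit of cytochrome c oxidase. The genes most like SNRNP70 were MAPK8IP2 (r = 0.999), AGO1 (r = 0.999), COL6A1 (r = 0.998), FBXL19 (r = 0.998) and CBS (r = 0.998), of which AGO1 encodes an Argonaute protein, COL6A1 a collagen chain and CBS cystathionine beta-synthase. Without WT fraction 8 replicate 3, 4 of the 5 genes of each list remained, SF3B6 and MAPK8IP2 giving way to SCMH1 and PRMT1.

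Because the fractions ran in opposite orders, the matching sides were also compared across genotypes. Between D146N fractions 7 and 8 and WT fractions 3 and 4, 4 mRNAs were called higher and 0 lower, where 6.90% of all genes were higher, 10.4% lower and 17.3% changed. SNRPG was higher by 0.40 (SE 0.117, adjusted p = 0.0231, edgeR), SNRNP70 by 0.37 (SE 0.0661, adjusted p = 0.000101), SNRPC by 0.34 (SE 0.0652, adjusted p = 0.000281) and SNRPD1 by 0.29 (SE 0.0662, adjusted p = 0.00182). The other 6 had log2 fold changes between 0.14 (SNRPD3) and 0.32 (SNRPB) and were not called, so all 10 values were positive, with a median of 0.29 against 0.01 for all genes. The SEs of SNRPA (0.227) and SNRPB (0.127) also hold the spread of WT fraction 8 replicate 3. This comparison was not refitted without that library. On the TMM scale 8 were higher without overlap and 0 lower, as were 4.87% and 7.86% of tested genes. SNRPE was called, at 0.32 to 0.35, when replicate 1 or 3 of D146N fraction 7, any D146N fraction 8 library, replicate 2 or 3 of WT fraction 3 or replicate 3 of WT fraction 4 was left out. SNRPF was called, at 0.26 to 0.28, without replicate 2 of D146N fraction 7, replicate 2 or 3 of D146N fraction 8, replicate 1 of WT fraction 3 or replicate 2 of WT fraction 4. With library totals, as with protein-coding totals, 8 were called higher, where the median of all genes was 0.16 and 0.05. The shares of all genes called on these scales are not given here.

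Between D146N fractions 3 and 4 and WT fractions 7 and 8, SNRNP70 was higher and 5 Sm mRNAs were lower, where 17.1% of all genes were higher, 12.1% lower and 29.2% changed. SNRNP70 was higher by 0.996 (SE 0.0862, adjusted p = 2.89e-11, edgeR), above 94.1% of tested genes, and was the 1 member higher without overlap on the TMM scale, with 0 lower, where 7.77% and 4.85% of tested genes were. SNRPD2 was lower at -0.82 (SE 0.103, adjusted p = 3.55e-07), SNRPG at -0.72, SNRPF at -0.57, SNRPE at -0.52 and SNRPD1 at -0.32 (SE 0.0693, adjusted p = 0.000474). On the TMM scale the values of these 5 overlapped through WT fraction 8 replicate 3, and without it SNRPD2 stood at -0.95 (SE 0.0277, adjusted p = 1.28e-34) and SNRPA was called higher at 0.44 (SE 0.0742, adjusted p = 3.41e-06). SNRPB, SNRPD3, SNRPA and SNRPC had -0.23, -0.19, -0.08 and -0.05 and were not called. SNRPD3 was called without WT fraction 8 replicate 3 (-0.28) or D146N fraction 3 replicate 2 (-0.23), and SNRPB without WT fraction 8 replicate 1 (-0.32). With protein-coding totals the sign of these 4 turned, SNRPC was called higher at 0.23 and the SNRPD1 call was lost, at -0.036.

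**Figure D5:**
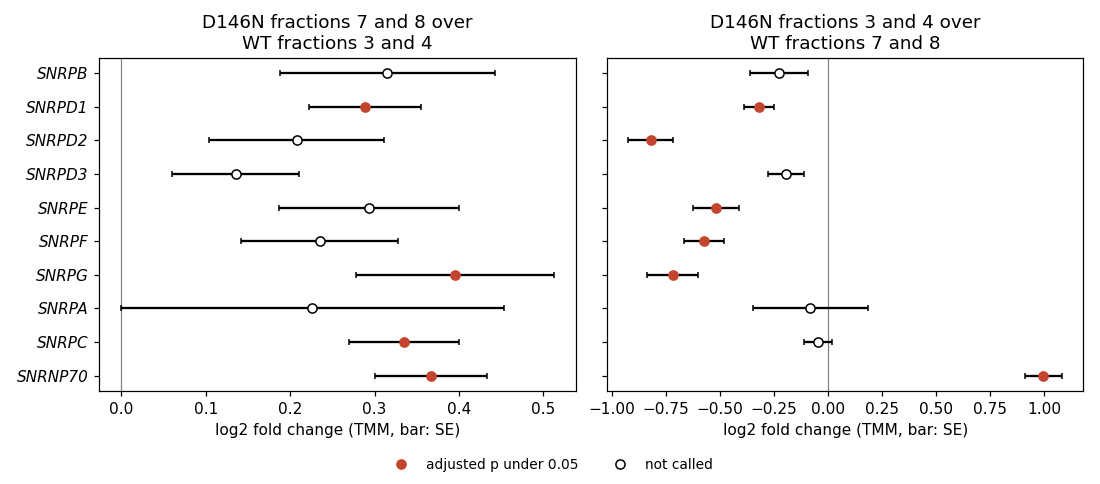
Log2 fold change (horizontal axes, which differ between panels; bar: SE) of each mRNA for D146N fractions 7 and 8 over WT fractions 3 and 4 (left) and D146N fractions 3 and 4 over WT fractions 7 and 8 (right), filled where the adjusted p is under 0.05. All 10 values on the left lie between 0.14 and 0.40, and SNRNP70 at 0.996 stands alone above 0 on the right.

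When the 4 fractions of each genotype and replicate number were summed, 3 sums against 3, SNRNP70 and SNRPD1 were called higher in D146N cells and SNRPD2, SNRPE, SNRPF and SNRPG lower, where 14.9% of 20581 genes were higher, 12.4% lower and 27.4% changed. SNRNP70 was higher by 0.53 (SE 0.0386, adjusted p = 3.63e-08, edgeR) and SNRPD1 by 0.13 (SE 0.0412, adjusted p = 0.0253). SNRPD2 was lower at -0.66 (SE 0.0703, adjusted p = 0.000148), and SNRPF, SNRPG and SNRPE at -0.23, -0.22 and -0.21. With protein-coding totals SNRPF, SNRPG and SNRPE stood at -0.092, -0.079 and -0.070 and were not called. The SNRPD1 call was lost when D146N replicate 1 or 3 or WT replicate 2 was left out (0.11 to 0.13) or with DESeq2 (0.13), and without WT replicate 3 SNRPB (0.29) and SNRPA (0.36) were called higher too. On the TMM scale 3 members were higher and 4 lower without overlap, as were 21.8% and 19.9% of genes. A sum weighs the fractions by their depth and by how many were sampled, so it is not the level in whole cytoplasm.

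Other genes of the snRNP pathway were drawn from a list of 70, of which 69 were tested. SNRPN, a paralogue of SNRPB, was the exception. In D146N cells 28 of the 69 rose and 25 fell in fractions 7 and 8, where 29.9% of all genes rose and 30.3% fell. In WT cells 30 rose and 33 fell, where 34.6% of all genes rose and 39.3% fell. The list had medians of 0.01 in D146N and -0.18 in WT cells, against 0.10 and -0.18 for all genes. The LSm genes, which encode relatives of the Sm proteins that ring U6 snRNA, decapping targets or the U7 snRNA, went with the Sm mRNAs: in D146N cells 0 of 10 rose and 9 fell, with a median of -2.01, and in WT cells 9 of 10 rose and 0 fell, with a median of 2.83. With library totals these medians were 0.92 and 0.15. LSM10, of the U7 ring, had -3.34 in D146N and 3.88 in WT cells, and LSM11, its partner, was not called in either (-0.01 and -0.20).

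Other genes of the list moved in both directions. TXNL4A, a thioredoxin-like U5 protein, had -3.61 (SE 0.0652, adjusted p = 1.76e-32, edgeR) in D146N and 3.83 (SE 0.0658, adjusted p = 5.38e-33) in WT cells. SF3B5, of the U2 complex SF3B, had -2.85 and 3.30, LSM1, of the decapping ring, fell by 2.38 in D146N cells, and SNU13, which binds U4 snRNA, rose by 2.47 in WT cells. In the other direction, the U2 genes SF3B2 and SF3A3 rose by 1.36 and 0.96 in D146N cells and fell by 1.99 and 1.66 in WT cells. CD2BP2 and SF3A2 rose by 1.17 and 0.91 in D146N cells, and SF3B1, the branch-site subunit of the U2 snRNP, fell by 2.46 in WT cells. Without WT fraction 8 replicate 3 the WT counts were 29 higher and 34 lower over the list and again 9 higher and 0 lower for the LSm genes.

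Across the genotypes the matching sides and the sums were compared for the same list. Between D146N fractions 7 and 8 and WT fractions 3 and 4, 15 of the 69 were higher and 12 lower, where 6.90% of all genes were higher and 10.4% lower, with SF3B4 at 0.34 and SNU13 at 0.31 among the higher, and SNRNP200, the U5 helicase, and SF3B1, both at -0.49, among the lower. Between D146N fractions 3 and 4 and WT fractions 7 and 8, 25 were higher and 19 lower, where 17.1% and 12.1% of all genes were, with SF3B1 at 1.33 and SF3B2 at 0.85 among the higher and LSM7 at -0.58 and LSM6 at -0.54 among the lower. In the sums 18 were higher and 15 lower, where 14.9% and 12.4% of all genes were, with SART1 at 0.55 and SF3B4 at 0.49 against SNRNP200 at -0.31 and XPO1, a nuclear export receptor, at -0.29.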

How the data were processed

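RNA of gradient fractions, depleted of ribosomal RNA, was sequenced in 24 samples, grouped by their titles. The table deposited by the authors holds expected counts for each gene with no normalization, and 73.3% of its nonzero values were whole within 0.005. Tools named in the submitters' processing notes, without their roles, were featureCounts 1.5.1, HISAT2 2.1.0, SAMtools and Bowtie2 2.3.5, with the build hg38. Whether counting used strand is not given in the sources used here, so reads of overlapping or antisense genes cannot be told apart. Values were rounded to whole numbers, since the tests had been planned for counts. Symbols matched 99.9% of rows.

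The main test was edgeR 4.0.16 (R 4.3.3) with TMM scaling and filterByExpr. A mean for each of the 8 groups was estimated from all 24 libraries by robust quasi-likelihood (biological coefficient of variation 13.8%). Adjusted p-values follow Benjamini and Hochberg across 18907 genes, and a call is an adjusted p under 0.05. Sums of the 4 fractions were fitted separately. A standard error is the size of the log2 fold change divided by the square root of F. Alternatives were other size factors, library totals, totals of 19176 protein-coding rows, no filter, small and mitochondrial RNA rows left out, pseudogene rows added, limma 3.58.1 voom, DESeq2 1.42.0, a replicate block and leaving out each library. The fit was tested on simulated data.

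The members and lists were chosen with earlier results of these data known. All 10 members are named. Of the pathway list, SNRPN and up to 4 called genes with the smallest p per contrast and direction are named; LSM11 was named after its values were seen. Some genes that this rule would name are not reported here. Neighbours are the 5 genes with the highest Pearson's r over log2 group means (pseudocount 0.5). Pairing by replicate number was not seen in the deviations: 0 of 84 pairs of same-numbered libraries had deviations correlated over 0.1. This does not tell whether they shared a culture or gradient.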

Additional observations from a re-analysis of the deposited data

Results flagged for a closer look

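For 9 of the 10 mRNAs the fraction contrast (fractions 7 and 8 over 3 and 4) differed between D146N and WT cells by the test of the difference itself in edgeR, with opposite signs in the genotypes on the TMM scale. Of all 18907 genes tested, 77.1% differed by the same test, 41.7% with a positive and 35.4% with a negative difference. A difference as such was thus common among all genes. The log2 difference, D146N minus WT, was -7.71 for SNRPD2, -5.48 for SNRPE, -5.15 for SNRPC, -5.11 for SNRPF, -5.03 for SNRPG, -2.49 for SNRPD1, -1.94 for SNRPD3 and -1.64 for SNRPB. It was 3.17 for SNRNP70. For SNRPA it was 0.65 and was not called, and without WT fraction 8 replicate 3 it was 1.21 and was called (adjusted p = 3.04e-18, edgeR). For SNRPB it was -1.37 without that library. D146N and the order of the fractions cannot be told apart here.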

How the results depend on the processing

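Direction depended most on scaling. Under library totals and protein-coding totals the log2 values that turned sign are as follows. For D146N fractions 7 and 8 against 3 and 4, library totals gave SNRPB 2.38, SNRPD1 1.98, SNRPD3 2.12, SNRPE 0.59, SNRPF 0.78, SNRPG 0.97 and SNRPC 0.54, and protein-coding totals gave SNRPB 1.06, SNRPD1 0.67 and SNRPD3 0.80. For the WT contrast, library totals gave SNRPB -1.54, SNRPD1 -1.14 and SNRPD3 -1.55, and protein-coding totals -0.74, -0.30 and -0.72. For D146N minus WT, library totals gave SNRPB 3.92, SNRPD1 3.12, SNRPD3 3.67, SNRPE 0.15, SNRPF 0.52, SNRPG 0.60 and SNRPC 0.45, and protein-coding totals gave SNRPB 1.80, SNRPD1 0.97 and SNRPD3 1.52. For D146N against WT in fraction 3, library totals gave SNRPB -1.88, SNRPD1 -1.58, SNRPD3 -1.85, SNRPE -0.10, SNRPF -0.37 and SNRPG -0.48, and protein-coding totals gave SNRPB -0.69, SNRPD1 -0.38 and SNRPD3 -0.66. In fraction 4, library totals gave SNRPB -1.95, SNRPD1 -1.52, SNRPD3 -1.82, SNRPE -0.20, SNRPF -0.42, SNRPG -0.37 and SNRPC -0.12, and protein-coding totals gave SNRPB -0.72, SNRPD1 -0.29 and SNRPD3 -0.59. In fraction 7, library totals gave SNRPB 2.39, SNRPD1 1.65, SNRPD3 1.81, SNRPF 0.15, SNRPG 0.087 and SNRPC 0.57, and protein-coding totals gave SNRPB 1.38, SNRPD1 0.63 and SNRPD3 0.79. In fraction 8, library totals gave SNRPB 1.61, SNRPD1 1.49, SNRPD3 1.87, SNRPE 0.032, SNRPF 0.11, SNRPG 0.27, SNRPA 2.49 and SNRPC 0.22, and protein-coding totals gave SNRPB 0.81, SNRPD1 0.63, SNRPD3 1.002 and SNRPA 1.71. For D146N fractions 3 and 4 against WT fractions 7 and 8, protein-coding totals gave SNRPB 0.032, SNRPD3 0.090, SNRPA 0.16 and SNRPC 0.23.

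The scaling also moved the numbers of members called, along with those of all genes. With library totals, 16800 of 18907 genes tested were higher and 772 lower in the D146N contrast. The WT contrast had 1448 higher and 15808 lower, and D146N minus WT had 16664 and 1212. Medians of all genes were -2.85, -2.85, 3.08 and 2.78 in fractions 3, 4, 7 and 8. They were 0.16 for D146N fractions 7 and 8 against WT fractions 3 and 4 and 0.10 in the sums. Library totals gave 9 higher and 1 lower for D146N fractions 7 and 8 against 3 and 4, 4 and 5 for the WT contrast, 8 and 1 for D146N minus WT, 1 and 7 in fraction 3, 1 and 8 in fraction 4, 6 and 1 in fraction 7, 7 and 1 in fraction 8, 8 higher for D146N fractions 7 and 8 against WT fractions 3 and 4, and 4 higher in the sums. Protein-coding totals gave 5 higher and 5 lower for each fraction contrast, their difference and each single fraction, 8 higher for D146N fractions 7 and 8 against WT fractions 3 and 4, 2 higher for D146N fractions 3 and 4 against WT fractions 7 and 8, and 6 higher and 1 lower in the sums. With that scale, 14011 of 18729 genes tested were higher and 2402 lower in the D146N contrast. The WT contrast had 2816 and 14002, and D146N minus WT had 14444 and 2885. Medians of all genes were -1.64, -1.61, 2.04 and 1.90 in fractions 3, 4, 7 and 8. For the matching sides they were 0.05 and 0.28, and for the sums 0.15. Numbers of all genes called on either scale are not given here for single fractions, matching sides and sums. Size factors by median of ratios gave 1 higher in fraction 7. No filter gave 2 higher for D146N minus WT and 4 in the sums. Limma voom gave 2 higher for the D146N contrast, 2 for D146N minus WT and 4 in the sums. Over all genes, no filter gave 9079 higher of 37194 for D146N minus WT. With limma voom, 4848 of 18907 genes were higher in the D146N contrast and 7196 for D146N minus WT. In the main fit 32.4% of all genes were higher in fraction 7 and 14.9% in the sums. No filter also ended the SNRPB call in fraction 7 (-0.38), and protein-coding totals ended that of SNRPD1 for D146N fractions 3 and 4 against WT fractions 7 and 8 (-0.036). DESeq2, pseudogene rows added and small and mitochondrial RNA rows left out moved no count by over 1.5 times.

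In the main fit, 39.3% of all genes were lower in the WT contrast and 41.7% higher for D146N minus WT. In fractions 7 and 8, 32.4% and 32.5% were higher. For D146N fractions 3 and 4 against WT fractions 7 and 8, 17.1% were higher, and 14.9% in the sums. Leaving out 1 library at a time gave 1 to 2 lower members for the WT contrast, 1 to 2 higher for D146N minus WT, for fraction 7, for fraction 8 and for D146N fractions 3 and 4 against WT fractions 7 and 8, and 1 to 4 higher in the sums. SNRPA in fraction 8 turned sign, with values from -0.38 to 0.98, the highest without WT fraction 8 replicate 3. For D146N fractions 3 and 4 against WT fractions 7 and 8, values ran from -0.32 to 0.0068 for SNRPB and from -0.25 to 0.44 for SNRPA, the lowest without WT fraction 8 replicate 1 and the highest without replicate 3. The SNRPB calls were lost in the D146N contrast without replicate 3 of fraction 7 (-0.37) or of fraction 8 (-0.38), and in fraction 7 without any D146N fraction 7 library or WT replicate 2 (-0.50 to -0.34). Near 0, SNRPA in fraction 8 also turned with no filter (0.11) and limma voom (0.18), as did SNRPA (0.046, limma voom) and SNRPC (0.0019, no filter) for D146N fractions 3 and 4 against WT fractions 7 and 8. The replicate block changed no call and turned only SNRPA in fraction 8, to 0.021; with it, 8 members were higher and 1 lower in the WT contrast. Deviations of same-numbered libraries correlated between -0.04 and 0.03, which does not tell whether they came from 1 culture or gradient. The description by mRNA length was not run, because transcript lengths were not used here. The cause of these shifts was not tested. Correlations and neighbours without WT fraction 8 replicate 3 were computed after seeing the data. The lowest count, 77 of SNRNP70, limits its precision in WT fraction 7.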
